A study of Mus musculus with 6 samples.

Results

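The cytokine receptor chains that signal through Janus kinases (JAKs) and are described here are Ifngr1, Ifngr2, Ifnar1, Ifnar2, Il6ra, Il6st, Il10ra, Il10rb, Il31ra and Osmr. These 10 genes were chosen by name, and all 10 were found among the 32285 genes counted in each library. Immune cells (CD45+) were sorted from the ventral midbrain of male Line 61 mice, which carry human α-synuclein under the Thy1 promoter on the X chromosome, and were profiled by single-cell RNA sequencing (scRNA-Seq). All groups carried this transgene, and no group without it was analysed here. Mice were 12 to 15 weeks old when both striata were injected, and cells were collected 6 weeks later from pools of 3 to 5 midbrains. The PBS group received PBS, the Monomer group received α-synuclein monomer, and 2 groups received preformed fibrils (PFF), with 2 µl of protein at 5 mg/ml for monomer and fibrils. From week 2 and for 4 weeks, the fibril groups were given by gavage either vehicle (PFF + VH) or the JAK1 and JAK2 inhibitor AZD1480 at 25 mg/kg per day (PFF + AZD1480). There was 1 gene expression library per group, so that a condition and its library cannot be told apart. The PFF + VH and PFF + AZD1480 cells carried 4 and 5 hashtags, which served as the replicates of these groups. The paper's methods give 4 and 5 biological replicates for these groups, as many as the hashtags. The sources do not pair hashtags with mice or pools, so p-values over hashtags measure only the spread between these samples, which may be technical.

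A cytokine receptor of this kind has no kinase of its own. Binding of the cytokine brings together receptor chains whose tails hold JAKs, the JAKs phosphorylate the tails and then STAT proteins, and the STATs enter the nucleus and switch on target genes, among them the SOCS inhibitors that dampen the signal. In the brain, microglia are a main target of interferons, of interleukin-6 (IL-6) and of interleukin-10 (IL-10), and the same chains are used by infiltrating lymphocytes and myeloid cells.

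After filtering, 13021 to 34436 cells were kept per library. Their median depth was 6616 to 7028 unique molecular identifiers (UMIs, 1 per captured transcript) in PBS, Monomer and PFF + AZD1480, but only 2306 in PFF + VH. Levels are given as CPM, the UMIs of a gene over all UMIs of a cell class, scaled to one common total. Cell classes were set by the UMIs of marker genes, and the names below mean cells that resemble each type: microglia (MG), border-associated macrophages (BAM), monocytes (Mono), dendritic cells (DC), T, NK and B cells, neutrophils (Neu) and endothelial cells. BAM, Mono and DC together are called MM. MG made up 92.1% to 95.1% of the cells kept, and their 10 defining markers summed to 18339 to 21609 CPM. The same markers were at 5.3% to 22.5% of the MG level in T cells, highest in PFF + VH. For contrasts of BAM, T and B cells and of MG ranges over the 4 libraries, the counts of members called are also given without the shallow PFF + VH library. Of the barcodes, 0.346% to 1.03% of the smaller library were shared between a pair of libraries.

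Of the 10 chains, 4 lie side by side on the plus strand of mouse chromosome 16 (GRCm38, GENCODE M21), within 193 kb. They are Ifnar2 (chr16:91372783-91405589), Il10rb (chr16:91406164-91425834), Ifnar1 (chr16:91485238-91507441) and Ifngr2 (chr16:91547072-91565623). The protein-coding model Gm21970 overlaps Ifnar2 by 13869 bp and Il10rb by 13288 bp on the same strand, and is not among the genes counted. Il6st (chr13:112464070-112510086, plus strand) and Il31ra (chr13:112519898-112594360, minus strand) face each other with their 3′ ends, with 9.81 kb between them. Ifngr1 lies on chromosome 10 (chr10:19591949-19610229, plus), Il6ra on chromosome 3 (chr3:89864059-89913196, minus), Il10ra on chromosome 9 (chr9:45253837-45269149, minus) and Osmr on chromosome 15 (chr15:6813577-6874969, minus). The antisense gene Gm42809, which was counted, overlaps the first 281 bp of Il6ra. The counting setting for strand was not given in the sources used here.

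RefSeq promoter windows (GRCm38.p6, 250 bases before to 50 after the start) were found for 8 of the 10 genes, all but Il10ra and Il10rb. The letters TTCNNNGAA, which read the same on both strands and are the core that STAT dimers favour, occur in 3 of these 8 windows and in 8.30% of all 32851 windows. The core of the interferon-stimulated response element (GAAA, any 2 letters, then GAAA), searched on both strands, occurs in 0 of the 8 and in 3.44% of all windows. All 3 windows with a TTCNNNGAA match are shown. They belong to Il31ra and Ifnar2, the chains that fell in MG with AZD1480, and to Ifnar1, the partner chain of Ifnar2, which did not fall. Whether a match goes with the direction of change was not tested. Capitals mark the match. The Il31ra window is chr13:112580613-112580912 (minus strand), the Ifnar2 window chr16:91372533-91372832 (plus) and the Ifnar1 window chr16:91484965-91485264 (plus). The Il31ra window follows the RefSeq start, which lies inside the GENCODE span of the gene given above and not at its 5′ end.
Il31ra: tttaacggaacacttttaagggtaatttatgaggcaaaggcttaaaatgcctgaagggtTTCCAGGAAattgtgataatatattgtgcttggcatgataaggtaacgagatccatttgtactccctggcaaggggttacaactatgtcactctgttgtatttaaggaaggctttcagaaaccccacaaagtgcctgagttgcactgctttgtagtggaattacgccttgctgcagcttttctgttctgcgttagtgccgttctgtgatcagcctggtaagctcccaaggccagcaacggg
Ifnar2: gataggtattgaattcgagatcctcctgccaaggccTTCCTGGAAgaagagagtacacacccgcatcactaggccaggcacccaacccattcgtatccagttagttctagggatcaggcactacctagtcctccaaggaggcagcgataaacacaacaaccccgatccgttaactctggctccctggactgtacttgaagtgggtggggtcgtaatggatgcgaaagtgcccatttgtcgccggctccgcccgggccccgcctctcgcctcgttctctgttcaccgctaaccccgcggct
Ifnar1: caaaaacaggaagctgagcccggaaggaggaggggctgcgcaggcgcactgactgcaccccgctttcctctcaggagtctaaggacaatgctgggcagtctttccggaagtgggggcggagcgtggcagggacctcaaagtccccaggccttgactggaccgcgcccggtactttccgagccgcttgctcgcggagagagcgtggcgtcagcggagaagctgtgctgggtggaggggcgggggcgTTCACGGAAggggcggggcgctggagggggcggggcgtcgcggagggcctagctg
The match lies in different parts of the windows, and it is a description of letters, not of binding.

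Which cells carried the chains was asked first. The chains were not spread evenly over the immune cells of the midbrain. Among the 8 immune classes, MG had the highest mean level of Il6ra, Il6st and Il10ra over the 4 libraries, T and NK cells had the highest Ifngr1, and BAM had the highest Il10rb. Osmr was all but missing from every immune class and was read in the few endothelial-like cells found in the CD45+ sort. How these cells came through the sort was not tested. Contrasts against MG were tested over the 4 libraries with a library term for the classes with at least 20 cells in each library (BAM, T and B), by the quasi-likelihood test of edgeR with Benjamini-Hochberg adjustment over 9553 genes. Osmr was too low to be tested, and 9 members were tested.

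Interferon-γ binds Ifngr1, and Ifngr2 is the chain that brings in JAK2. Ifngr1 was at 401, 409, 356 and 443 CPM in MG of PBS, Monomer, PFF + VH and PFF + AZD1480. In T cells it was at 792, 771, 519 and 684 CPM, above MG in each library. The log2 difference between T and MG was 0.78 ± 0.15 (SE; edgeR adjusted p = 0.00020). Ifngr2 took the opposite direction, with 231, 242, 237 and 254 CPM in MG against 59.3, 36.9, 51.3 and 82.4 CPM in T cells, and a log2 difference of -2.06 ± 0.19 (edgeR adjusted p = 3.0e-08). The chains of 1 receptor thus had opposite orders in T cells and MG. In T cells of PFF + VH, the MG markers would carry 53.3 CPM of Ifngr2 if all of them came from MG RNA, and the level read there (51.3 CPM) was at or under that value.

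NK cells resembled T cells in these chains, with 1131, 721, 598 and 829 CPM of Ifngr1 in the same order of libraries. Ifngr2 in NK cells was at 14.1, 7.51, 75.2 and 39.5 CPM, at or under what MG RNA would carry in 1 of 4 libraries. B cells were low for both chains, and Ifngr1 was at 165, 153, 62.6 and 107 CPM there. The log2 difference of Ifngr1 between B and MG was -1.80 ± 0.20 (edgeR adjusted p = 5.3e-07). In BAM, Ifngr1 (297 to 340 CPM) was not called against MG, with a log2 difference of -0.27 ± 0.15 (edgeR adjusted p = 0.17), although it was called without the PFF + VH library (-0.40, edgeR adjusted p = 0.027) and with stricter class limits (-0.56, edgeR adjusted p = 0.0083). Ifngr2 fell in BAM by 0.77 on the log2 scale (SE 0.16, edgeR adjusted p = 0.00082).

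Ifnar1 and Ifnar2 form the receptor of type I interferons, with TYK2 on Ifnar1 and JAK1 on Ifnar2. Ifnar1 was at 55.7, 55.7, 55.5 and 63.1 CPM in MG, and at 137, 156, 89.5 and 94.1 CPM in BAM of PBS, Monomer, PFF + VH and PFF + AZD1480. BAM were above MG in all 4 libraries (log2 difference 1.11 ± 0.18, edgeR adjusted p = 5.2e-05). Ifnar2 was at 341, 323, 347 and 271 CPM in MG and 483, 440, 368 and 269 CPM in BAM, and was not called between them (log2 difference 0.35 ± 0.16, edgeR adjusted p = 0.094). In T cells Ifnar2 was lower than in MG, at 121, 121, 147 and 184 CPM (log2 difference -1.15 ± 0.18, edgeR adjusted p = 1.4e-05). Ifnar1 in T cells was at 105, 84.3, 54.5 and 80.5 CPM, and in PFF + VH it was no higher than in MG. It passed the threshold (log2 difference 0.53 ± 0.21, edgeR adjusted p = 0.035) but lost it in 6 of 11 alternatives, among them without the PBS library (0.31, edgeR adjusted p = 0.33) and by DESeq2 (0.47, adjusted p = 0.090).

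Il6ra binds IL-6, and Il6st encodes gp130, the signalling chain that IL-6 shares with oncostatin M, LIF and others. Il6ra was at 290, 274, 217 and 282 CPM in MG, and at 60.6, 33.4, 38.5 and 44.1 CPM in T cells. The log2 difference between T and MG was -2.57 ± 0.18 (edgeR adjusted p = 6.3e-10). In T cells of PFF + VH, MG RNA would carry 48.9 CPM of Il6ra, above the 38.5 CPM read. Il6st was at 216, 226, 167 and 178 CPM in MG and fell in each class tested, by 1.30 on the log2 scale in BAM (SE 0.17, edgeR adjusted p = 6.1e-06), by 1.59 in T cells (SE 0.20, edgeR adjusted p = 1.0e-06) and by 1.94 in B cells (SE 0.27, edgeR adjusted p = 1.1e-05). In BAM the 71.7 to 81.2 CPM of Il6st were at most 2 times what MG RNA would carry in each of the 4 libraries. Il6ra fell in BAM by 0.52 on the log2 scale (SE 0.14, edgeR adjusted p = 0.0064), which was lost without the Monomer library (-0.44, adjusted p = 0.061).

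Il10ra is the chain that binds IL-10, and Il10rb is a partner chain that IL-10 shares with interleukin-22 and the lambda interferons. Il10ra was at 322, 325, 315 and 376 CPM in MG and at 161, 224, 165 and 184 CPM in BAM. BAM were below MG in each library (log2 difference -0.79 ± 0.16, edgeR adjusted p = 0.00052). Il10rb had the reverse order, with 109, 114, 106 and 118 CPM in MG against 256, 235, 227 and 223 CPM in BAM (log2 difference 1.15 ± 0.14, edgeR adjusted p = 2.1e-06). The neighbours Ifnar1 and Il10rb on chromosome 16 were thus both higher in BAM, while Ifngr2 beside them was lower and Ifnar2 was not called. In T cells Il10ra was at 57.9 to 106 CPM and fell by 2.17 on the log2 scale (SE 0.19, edgeR adjusted p = 9.0e-09).

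Counted over the members, 6 of 9 were called in BAM against 39.6% of all genes tested, 9 of 9 in T cells against 60.7%, and 7 of 9 in B cells against 42.3%. In T cells 3 members were higher and 6 lower than in MG, where 29.7% and 31.0% of all genes were, and in B cells 0 were higher and 7 lower, beside 18.8% and 23.6%. In BAM 2 were higher and 4 lower, beside 21.2% and 18.4%. Il31ra in BAM was not called (0.27 ± 0.13, edgeR adjusted p = 0.12). The other called members in B cells had log2 differences of Ifngr2 -1.66, Ifnar2 -1.67, Il6ra -2.61, Il10ra -2.17 and Il10rb -0.81 (edgeR adjusted p from 4.9e-08 to 0.0093, with Il10rb lost without PBS at 0.081), and those not called were Ifnar1 0.06 and Il31ra -0.11 (edgeR adjusted p = 0.89 and 0.81). The T cell call of Il10rb (-0.44, edgeR adjusted p = 0.031) was lost without the PBS library (-0.36, edgeR adjusted p = 0.11) and without Monomer (-0.36, edgeR adjusted p = 0.16). DESeq2 called 6, 8 and 7 of the 9. The median log2 difference of the members was -0.27 in BAM, -1.15 in T cells and -1.67 in B cells, beside 0.01, -0.0030 and -0.10 over all genes tested. Without the PFF + VH library, 7, 9 and 7 of the 9 were called. With classes of at least 10 cells admitted, an alternative chosen after the data were seen, 4 of 9 members were called in Mono (44.2% of 7695 genes), 6 of 9 in NK cells (53.3%) and 6 of 9 in Neu (57.1%). In Mono 1 was higher and 3 lower, beside 21.9% and 22.3% of genes, in NK cells 1 and 5, beside 25% and 28.3%, and in Neu 1 and 5, beside 25.1% and 32.0%. In NK cells Ifngr1 was again higher than in MG (log2 difference 0.80 ± 0.18, edgeR adjusted p = 0.00033), and Il6ra had a log2 difference of -3.93 ± 0.34 (edgeR adjusted p = 8.1e-11), with 0 UMIs in the 10 NK cells of PFF + AZD1480. The Il6ra and Il6st read in NK cells were at most 2 times what MG RNA would carry in each of the 4 libraries. In Mono Ifnar1 was higher (1.03 ± 0.29, edgeR adjusted p = 0.0042), as in BAM. Called members in Mono also had log2 differences of Il6st -1.81, Il10ra -0.94 and Il10rb -0.63 (edgeR adjusted p of at most 0.034), and members not called had Ifngr1 0.08, Ifngr2 -0.02, Ifnar2 0.20, Il6ra -0.43 and Il31ra 0.43 (edgeR adjusted p of at least 0.17). Called members in NK cells also had log2 differences of Ifngr2 -3.30, Ifnar2 -1.0, Il6st -3.51 and Il10ra -2.16 (edgeR adjusted p of at most 0.00023), and members not called had Ifnar1 0.47, Il10rb -0.17 and Il31ra 0.37 (edgeR adjusted p of at least 0.13). Called members in Neu also had log2 differences of Ifngr1 -0.62, Ifngr2 -0.73, Il6ra -0.83, Il6st -2.74 and Il10ra -1.59 (edgeR adjusted p of at most 0.032), and members not called had Ifnar2 -0.16 and Il10rb 0.28 (edgeR adjusted p of at least 0.28). No alternatives were run for these 3 classes, and their contrasts were not repeated without the PFF + VH library. The fitted values rest on TMM scaling (trimmed mean of M values), and no other scaling was run for Neu. For Ifnar1 and Il10rb in Neu, Il10rb in NK cells and Ifngr2 in Mono, none of them called, the fitted value and the mean CPM differed in direction. Il10rb in NK cells had a mean of 121 CPM against 112 in MG. Ifngr2 in Mono had a mean of 249 CPM against 241 in MG. Ifnar1 in Neu had a fitted log2 difference of 0.39 although its mean was 50.8 CPM against 57.5 CPM in MG, and the median of all genes in Neu was -0.32.

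**Figure D1:**
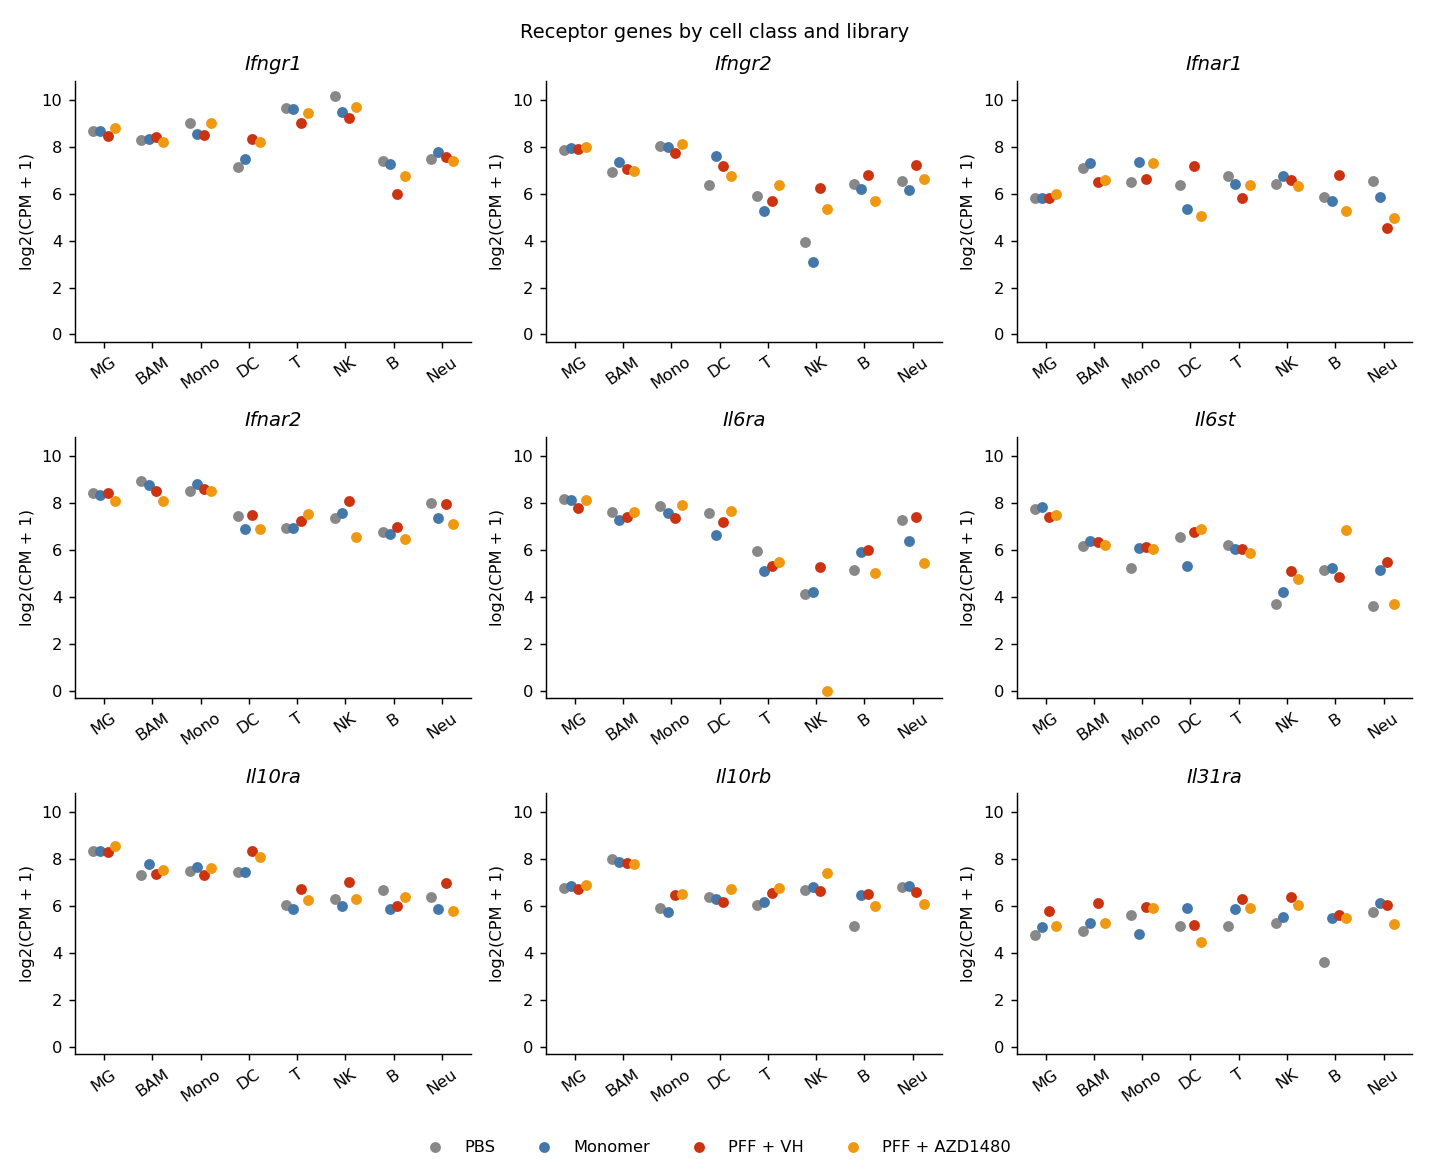
Each panel plots 1 receptor gene as log2(CPM + 1) on the y axis for 8 immune cell classes on the x axis, with 1 point per library (grey PBS, blue Monomer, red PFF + VH, orange PFF + AZD1480). Ifngr1 stands highest in T and NK cells, Il6ra, Il6st and Il10ra stand highest in MG, Il10rb stands highest in BAM, and Il31ra lies low in each class. The point at 0 for Il6ra is the NK class of PFF + AZD1480 with 10 cells.

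Il31ra and Osmr together form the receptor of interleukin-31, and Osmr with gp130 forms that of oncostatin M. Osmr was read as 32 UMIs among 370938246 UMIs of MG in the 4 libraries, a level of 0.0863 CPM, and as 1 UMI in BAM. T cells held 0 of 2161963 UMIs, which allows a level of up to 1.39 CPM for counting error alone. In endothelial cells, of which PBS and Monomer gave 15 and 28, Osmr was at 28 and 21 UMIs, or 417 and 192 CPM. The ligand Osm was read in MG at 58.4, 69.9, 72.2 and 91.3 CPM in PBS, Monomer, PFF + VH and PFF + AZD1480. The immune cells thus held transcripts of the ligand and hardly any of its own receptor chain.

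Il31ra was low in each immune class. Its mean over the 4 libraries was 37.3 CPM in MG, 43.6 in BAM, 57.1 in T cells, 58.0 in NK cells, 37.0 in B cells and 55.9 in Neu. The spread between libraries within a class was wide, such as 34.3, 57.9, 76.9 and 59.4 CPM in T cells of PBS, Monomer, PFF + VH and PFF + AZD1480. T cells were called above MG (log2 difference 0.62 ± 0.15, edgeR adjusted p = 0.0017), which was lost under stricter class limits (0.48, adjusted p = 0.069) and without a library term (0.55, adjusted p = 0.12). Among the classes admitted with at least 10 cells, Il31ra in Neu was at 52.1, 69.4, 65.8 and 36.3 CPM in PBS, Monomer, PFF + VH and PFF + AZD1480, from 6 to 14 UMIs a library. It was called above MG (log2 difference 1.06 ± 0.24, edgeR adjusted p = 0.00042) and was the sole member called higher in Neu. The fitted value, which rests on TMM scaling, is larger than the means of 55.9 CPM in Neu and 37.3 CPM in MG give. In PFF + AZD1480 the levels were close, at 36.3 CPM in Neu and 34.4 CPM in MG. MG RNA would carry 1.41 to 12.2 CPM of Il31ra in T cells, less than was read in any of the 4 libraries.

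The genes most like each member were taken from Pearson correlations of log2(CPM + 1) over the 32 sums of 8 immune classes and 4 libraries, among the 8802 genes whose mean reached 10 CPM. The sums share libraries and depth, so these values are descriptions. Il10ra was closest to Acer3 (r = 0.92) and Laptm5 (r = 0.91), Il6ra to Snx10 (r = 0.90) and Sgpl1 (r = 0.87), and Il6st to Laptm5 (r = 0.81) and Cst3 (r = 0.79). Ifngr2 had a correlation of 0.84 with Mpeg1, a gene of macrophages. Ifngr1 was closest to Prkch (r = 0.83) and Prkcq (r = 0.79), which encode protein kinases C known from T cells. Ifnar2 was closest to Ifi204 (r = 0.83) and Creg1 (r = 0.82), Ifnar1 to Dse (r = 0.71) and Dnttip2 (r = 0.70), and Il10rb to C4b (r = 0.78) and Ccn1 (r = 0.77). Il31ra had no close match, with 0.58 for Ubxn8 and 0.55 for Rinl.

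How the chains stood in MG of the 4 conditions was compared next, without a test because PBS and Monomer were 1 library each. Most chains differed little between PBS, Monomer and PFF + VH. Il31ra was at 54.3 CPM in PFF + VH, against 26.6, 34.0 and 34.4 CPM in PBS, Monomer and PFF + AZD1480. The ratio of PFF + VH to Monomer was 1.6 (95% counting interval 1.53 to 1.67). It was the sole member at or past 1.5-fold, a limit that 3.02% of 8545 genes passed in that comparison, and 0.483% of 8493 genes for Monomer against PBS. The ratio of PFF + AZD1480 to PFF + VH was 0.63 (0.60 to 0.66), past the same limit that 2.42% of 8487 genes passed. In the PFF + VH cells with a single hashtag, which leave out many shallow cells, Il31ra was lower, at 50.3 to 51.3 CPM. The part of depth in these ratios, and in passing 1.5-fold, was not tested.

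The next widest ratios of PFF + VH to Monomer were 0.74 for Il6st (interval 0.73 to 0.76) and 0.79 for Il6ra (0.78 to 0.81). Both IL-6 receptor chains were lowest in PFF + VH, at 167 and 217 CPM. In PFF + AZD1480, Il6ra was at 282 CPM, close to Monomer (ratio 1.03, interval 1.01 to 1.05), whereas Il6st at 178 CPM was not (0.79, interval 0.77 to 0.81). Some members were lowest or highest in PFF + AZD1480. For each gene 1 library is lowest and 1 highest by order alone, and the share of all genes with PFF + AZD1480 in that place was not counted. Ifnar2 was lowest there (ratio to Monomer 0.84, interval 0.82 to 0.85) and Il10ra highest (1.16, interval 1.14 to 1.18), as were Ifnar1 (1.13, interval 1.09 to 1.18), Ifngr1 (interval 1.07 to 1.10), Ifngr2 (1.05, interval 1.03 to 1.07) and Il10rb (1.03, interval 1.01 to 1.06), all under the 1.5-fold that 3.34% of genes passed. These intervals cover counting error only and not the spread between mice. In MM, Il31ra had the same order, at 1.73 (1.19 to 2.51) for PFF + VH against Monomer and 0.59 (0.42 to 0.83) for PFF + AZD1480 against PFF + VH, where 21.7% and 21.6% of genes passed 1.5-fold. Ifnar1 in MM was at 147 CPM in Monomer and 92.7 CPM in PFF + VH, a ratio of 0.63 (0.49 to 0.81), and at 96.4 CPM in PFF + AZD1480, a ratio to Monomer of 0.66 (0.53 to 0.81). Ifnar2 in MM was at 269 CPM in PFF + AZD1480 and 414 CPM in Monomer, a ratio of 0.65 (0.57 to 0.74), and 17.8% of genes passed 1.5-fold in that comparison.

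**Figure D2:**
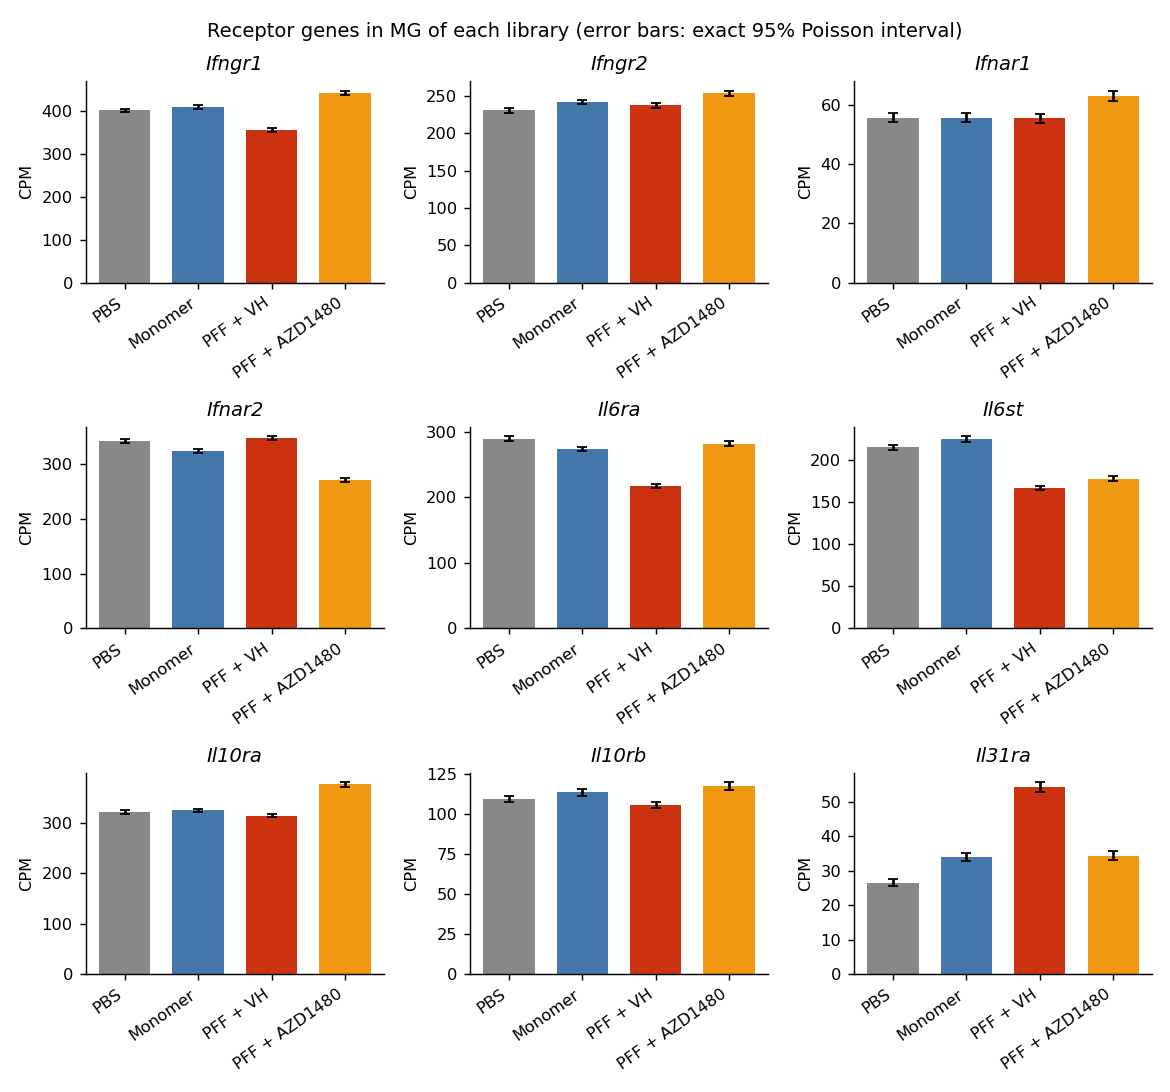
Bars show the level in CPM (y axis, from 0) of each receptor gene in MG of the 4 libraries on the x axis, with exact 95% Poisson intervals as error bars. Il31ra is highest in PFF + VH at 54.3 CPM, Il6ra is lowest there at 217 CPM, and Ifnar2 is lowest in PFF + AZD1480 at 271 CPM.

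Whether the inhibitor group differed from the vehicle group in MG was tested over the hashtags, 5 against 4, with edgeR across 13675 genes. Ifngr1, Il6ra and Il10ra, and by a small step Ifnar1, were higher with AZD1480, while Ifnar2 and Il31ra were lower. Ifngr2, Il6st and Il10rb did not pass the threshold, and Osmr could not be tested. Of the 9 members tested, 6 were called (4 higher and 2 lower) beside 26.6% of all genes tested, of which 12.1% were higher and 14.6% lower. DESeq2 also called 6. The median log2 difference was 0.07 over the members and -0.0021 over all genes.

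Il31ra was at 51.3, 50.3, 51.1 and 50.9 CPM in the 4 PFF + VH hashtags and at 36.1, 34.3, 35.9, 33.7 and 29.3 CPM in the 5 PFF + AZD1480 hashtags. All vehicle values lay above all inhibitor values. The mean was 50.9 ± 0.42 against 33.8 ± 2.75 CPM (SD, n = 4 and 5), a fall by 0.63 on the log2 scale (SE 0.06, edgeR adjusted p = 5.4e-05). The vehicle values rest on 689 to 1003 UMIs a hashtag, whose counting error is wider than the SD of 0.42 CPM. That SD thus understates how far such values can vary.

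Ifnar2 was at 356, 341, 347 and 366 CPM with vehicle and at 277, 270, 286, 258 and 263 CPM with AZD1480. The groups did not overlap here either. The means were 353 ± 10.9 and 271 ± 11.2 CPM (SD, n = 4 and 5), a fall by 0.43 on the log2 scale (SE 0.05, edgeR adjusted p = 8.3e-05). Its partner Ifnar1 was at 55.2, 56.6, 54.9 and 55.3 CPM with vehicle and 58.7, 66.9, 67.1, 62.7 and 63.5 CPM with AZD1480. The chains of the type I interferon receptor therefore moved in opposite directions, although the rise of Ifnar1 was small (0.15 ± 0.05 on the log2 scale, edgeR adjusted p = 0.046). It lost the threshold in 9 of 18 alternatives, with an adjusted p of up to 0.12, as without PFF + VH hashtag 1.

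Il6ra was at 224, 209, 200 and 216 CPM with vehicle and at 269, 271, 296, 290 and 291 CPM with AZD1480. The groups were apart, at 212 ± 10.5 against 284 ± 12.5 CPM (SD, n = 4 and 5), a log2 difference of 0.37 ± 0.04 (edgeR adjusted p = 0.00017). Its signalling chain Il6st was at 174, 164, 152 and 171 CPM with vehicle and 198, 173, 181, 163 and 181 CPM with AZD1480. The groups overlapped, and the log2 difference of 0.06 ± 0.06 was not called (edgeR adjusted p = 0.45; 95% interval -0.05 to 0.18).

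Ifngr1 was at 368, 342, 343 and 379 CPM with vehicle and at 446, 414, 450, 475 and 428 CPM with AZD1480. The groups did not overlap, and the log2 difference was 0.26 ± 0.05 (edgeR adjusted p = 0.0028). Ifngr2 was at 231 to 245 CPM with vehicle and 244 to 264 CPM with AZD1480, with overlap and no call (0.06 ± 0.04, edgeR adjusted p = 0.29; 95% interval -0.02 to 0.15). In each of the interferon-γ and IL-6 receptors the chain that binds the cytokine was called and its partner was not, but the difference between partners was not tested.

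Il10ra was at 281, 336, 322 and 307 CPM with vehicle and at 342, 384, 386, 380 and 420 CPM with AZD1480. The gap between the groups was narrow, and the log2 difference of 0.24 ± 0.07 (edgeR adjusted p = 0.024) was lost without PFF + VH hashtag 1 (0.18, adjusted p = 0.068) and without hashtag 4 (0.22, adjusted p = 0.062). Il10rb was at 102 to 111 CPM with vehicle and 114 to 120 CPM with AZD1480. Its groups did not overlap, yet it was not called (0.07 ± 0.04, edgeR adjusted p = 0.24; 95% interval -0.01 to 0.14). Of all genes tested, 23.6% had groups that did not overlap.

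**Figure D3:**
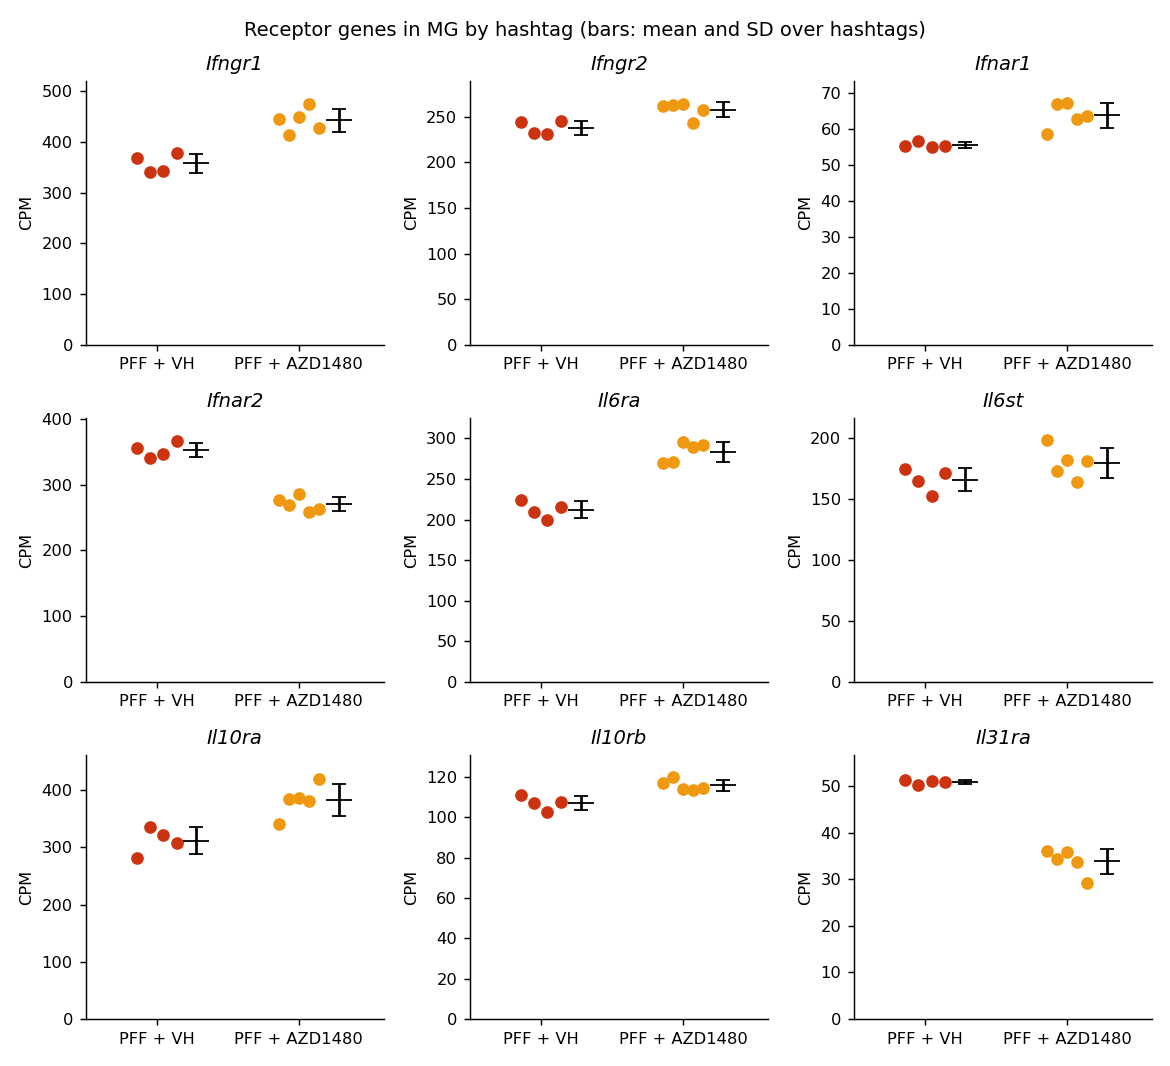
Each panel shows 1 receptor gene in MG, with the level in CPM on the y axis (from 0), 1 point per hashtag (4 for PFF + VH in red, 5 for PFF + AZD1480 in orange) and the mean with SD as a black bar. Il31ra and Ifnar2 lie lower with AZD1480 and Il6ra, Ifngr1 and Il10ra higher, while Il6st and Ifngr2 overlap.

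Other features of the MG sums moved with the same contrast. The transcript Gm42418 was at 11238 to 11947 CPM in the PFF + VH hashtags and at 8306 to 8581 CPM with AZD1480. The interferon-induced gene list summed to 531 to 652 CPM against 252 to 374 CPM, and the list of disease-associated microglia to 5053 to 7598 against 3074 to 5517 CPM. The sum of the T cell marker list in MG was 9.0 to 13.9 CPM against 2.70 to 5.05, and that of the BAM list was 35.7 to 63.4 against 21.8 to 40.0 CPM, while the MG markers were at 17363 to 19731 against 18201 to 19302 CPM. With the counts of Gm42418, AY036118, Malat1 and mitochondrial genes left out of the fit, 6 of 9 members were called, beside 3625 of 13630 genes. Dropping these counts leaves those of the other genes as they are, so it cannot show whether the members moved with them. The part of depth and of these transcripts in the other values was not tested.

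The rest of the pathway was read in the same fit. Of 24 target genes of these receptors, 14 fell and 2 rose (66.7% called, beside 26.6% of all genes), and 5 of the fallen, Ifit3 (-2.38), Ifit2 (-2.07), Ifi27l2a (-1.88), Irf7 (-1.76) and Isg15 (-1.64 on the log2 scale), are interferon-induced genes. Ciita, the switch of MHC class II genes, fell by 0.98 from a low level, 1.92 ± 0.62 to 1.05 ± 0.23 CPM (SD, n = 4 and 5). Among the JAK and STAT genes, Stat2 (-0.71 ± 0.10) and Stat4 (-0.66 ± 0.19) fell, and Stat6 (0.18 ± 0.06) and Tyk2 (0.17 ± 0.06) rose on the log2 scale. Stat4 was low, at 1.94 ± 0.27 and 1.27 ± 0.19 CPM (SD, n = 4 and 5). The targets of the inhibitor, named for that reason, were not called. Jak1 was at 400.4 ± 33.8 and 394 ± 48.8 CPM (SD, n = 4 and 5; edgeR adjusted p = 0.55), and Jak2 at 44.6 ± 3.1 and 51.4 ± 2.21 CPM (edgeR adjusted p = 0.069).

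Of 17 feedback genes 6 were called (35.3%). Usp18 (-1.90), Socs1 (-0.82) and Socs3 (-0.34) fell, and Socs7 (0.27), Socs6 (0.24) and Pias1 (0.23 on the log2 scale) rose. Usp18 is known to bind Ifnar2 and block its signal, and it was at 10.76 ± 1.98 CPM with vehicle and at 2.94 ± 1.07 CPM with AZD1480 (SD, n = 4 and 5). Of the 18 ligands, 8 were tested and 2 called (25%), again near the share over all genes. Il10 rose (4.37 ± 1.16 to 8.90 ± 2.78 CPM; log2 difference 0.97 ± 0.24, edgeR adjusted p = 0.011) while Il6 fell (16.1 ± 2.14 to 11.1 ± 1.25 CPM; -0.58 ± 0.11, edgeR adjusted p = 0.0023). Of 32 other receptor genes of the JAK pathway, 19 were tested and 5 called (26.3%), near the 26.6% of all genes. Crlf2 (0.63), Lifr (0.35) and Csf3r (0.25) rose, and Il2rb (-1.92) and Csf2rb (-0.26 on the log2 scale) fell. Il2rb was at 1.14 ± 0.34 and 0.29 ± 0.073 CPM. The sum of the T cell markers in the same MG sums was also lower with AZD1480, as given above. The part of T and NK cell RNA in the values of Il2rb and Stat4 was not tested.

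In MM and T cells the same contrast gave 0 member calls. In MM, 0 of 9 members were called by edgeR, beside 0.345% of 3478 genes (12 genes), and 1 member, Il31ra, had an unadjusted p under 0.05. DESeq2 also called 0, with 1 at an unadjusted p under 0.05. Il31ra was at 67.8, 93.6, 82.1 and 63.0 CPM with vehicle and at 44.0, 21.0, 60.4, 39.6 and 69.8 CPM with AZD1480, from 2 to 25 UMIs a hashtag. The groups overlapped, as for all but 3.77% of genes in MM, and the log2 difference of -0.90 ± 0.33 pointed as in MG (edgeR adjusted p = 0.34; 95% interval -1.54 to -0.26 before adjustment). Ifngr1 in MM was at 314 ± 55.5 with vehicle and 267 ± 81.1 CPM with AZD1480 (SD, n = 4 and 5), a log2 difference of -0.17 ± 0.22 against 0.26 in MG. The other members in MM had log2 differences of Ifngr2 0.14, Ifnar1 0.02, Ifnar2 -0.32, Il6ra 0.19, Il6st 0.22, Il10ra 0.36 and Il10rb -0.0039 (edgeR adjusted p of at least 0.66). Osmr was read in MM of 1 hashtag and could not be tested.

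The difference of the AZD1480 effect between MM and MG was tested as an interaction, and 0 of 9 members were called by edgeR, beside 0.462% of 13203 genes (0.28% with a larger and 0.182% with a smaller value in MM). Ifngr1 alone had an unadjusted p under 0.05 (-0.49 ± 0.24 on the log2 scale, edgeR adjusted p = 0.65). The other members had interaction values of Ifngr2 0.02, Ifnar1 -0.17, Ifnar2 0.04, Il6ra -0.21, Il6st 0.11, Il10ra 0.06, Il10rb -0.11 and Il31ra -0.31 (edgeR adjusted p of at least 0.92). In T cells 2 members passed the filter on low counts, Ifngr1 and Ifnar2. Of these, 0 were called by edgeR or DESeq2, at an unadjusted p under 0.05 also 0, beside 3.54% of 1440 genes. Ifngr1 in T cells was at 427, 490, 705 and 560 CPM with vehicle and 807, 458, 726, 797 and 625 CPM with AZD1480 (log2 difference 0.25 ± 0.23, edgeR adjusted p = 0.72; 95% interval -0.21 to 0.70). Ifnar2 there was at 71.2, 204, 295 and 180 CPM against 141, 99.0, 90.8, 148 and 313 CPM (-0.43 ± 0.37, edgeR adjusted p = 0.68). For both genes the groups overlapped, and 5.69% of genes in T cells had groups that did not. Hashtags with 2 to 32 T and NK cells carried these values. The PFF + VH library held 82 T and 60 NK cells, and PFF + AZD1480 held 81 and 10. The part of this mix in the contrast was not tested. The MG markers in T cells were at 2917 to 3822 CPM with vehicle and 545 to 1625 CPM with AZD1480. Their part in these values was not tested.

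Next, MG that expressed a fixed gene list were set against the other MG of the same library. A cell thinned to 1000 UMIs counted as expressing a list if it still held UMIs of 3 or more list genes, which makes each list a range of a score and not a cell type. The lists stand for interferon-induced genes (IFN), disease-associated microglia (DAM), cell division (Cycling) and inflammatory genes such as Il1b and Tnf (Inflammatory). DAM cells were 3.33%, 3.20%, 17.5% and 12.8% of MG in PBS, Monomer, PFF + VH and PFF + AZD1480, and IFN cells were 0.753%, 0.859%, 2.32% and 0.756%. Many cells lay 1 gene below the limit, such as 7400 beside 4862 DAM cells in PFF + VH. Contrasts were tested over the 4 libraries with edgeR.

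In DAM cells both IL-6 receptor chains and Ifngr1 were lower and Ifnar1 was higher. Il6ra was at 194, 205, 163 and 184 CPM in DAM cells of PBS, Monomer, PFF + VH and PFF + AZD1480, against 293, 277, 228 and 297 CPM in other MG. It was lower in all 4 libraries (log2 difference -0.48 ± 0.05, edgeR adjusted p = 2.1e-06). Il6st was at 149, 176, 123 and 125 CPM against 218, 227, 177 and 186 CPM (-0.43 ± 0.05, edgeR adjusted p = 4.2e-06), and Ifngr1 at 287, 322, 289 and 291 against 407, 414, 371 and 466 CPM (-0.40 ± 0.05, edgeR adjusted p = 2.5e-05). Ifnar1 rose from 55.3, 55.3, 53.0 and 60.4 CPM in other MG to 66.9, 64.6, 66.2 and 80.5 CPM in DAM cells (0.40 ± 0.06, edgeR adjusted p = 4.4e-05). Ifnar2 (0.17) and Il10rb (0.18) were also higher and Il10ra (-0.19 on the log2 scale) lower, by smaller steps. In all, 7 of 9 members were called 3 higher and 4 lower, beside 33.8% of 16661 genes (16.7% higher and 17.1% lower), and 7 also without the PFF + VH library. Without PBS, without PFF + AZD1480 and with a limit of 4 list genes 6 were called. Ifnar2 lost its call without PFF + AZD1480 (edgeR adjusted p = 0.059) and with 4 list genes (edgeR adjusted p = 0.084), and Il10ra without PBS (edgeR adjusted p = 0.052). The members not called had log2 differences of Ifngr2 0.07 and Il31ra 0.01 (edgeR adjusted p of at least 0.25).

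IFN cells, selected by genes that the interferon receptors induce, had 4 of 9 members called, 1 higher and 3 lower, beside 12.2% of 16050 genes (7.17% higher and 5.02% lower). The interferon receptor chains Ifnar1, Ifnar2 and Ifngr2 were not among them. The members not called had log2 differences of Ifngr2 -0.05, Ifnar1 0.01, Ifnar2 0.04, Il10rb -0.04 and Il31ra -0.09 (edgeR adjusted p of at least 0.82). Ifnar1 was at 56.9, 51.6, 51.9 and 60.8 CPM in IFN cells against 55.7, 55.7, 55.4 and 63.1 CPM in other MG. Ifngr1 fell by 0.39 on the log2 scale (SE 0.09, edgeR adjusted p = 0.00022), Il6ra by 0.32 (SE 0.09, adjusted p = 0.0075) and Il6st by 0.37 (SE 0.10, adjusted p = 0.0029), while Il10ra rose by 0.25 (SE 0.09, adjusted p = 0.033). The rise of Il10ra held in 4 of 9 alternatives. Among others, it was lost without the PBS, Monomer or PFF + VH library, with edgeR adjusted p of 0.16, 0.40 and 0.11. The fall of Il6ra held in 6 of 9, and was lost without PFF + VH (edgeR adjusted p = 0.11) or PFF + AZD1480 (0.059). Thus 2 of 9 members were called without the PFF + VH library. DESeq2 called 3. In these cells 17 of the 24 target genes rose and 0 fell, which the choice of the list fixes in part, since some genes are in both lists.

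Cycling cells were few, 10 to 174 per library, and had 7 of 9 members called, all 7 lower, beside 22.1% of 15732 genes (9.8% higher and 12.3% lower). Il6ra fell by 1.25 on the log2 scale (SE 0.17, edgeR adjusted p = 1.3e-11) and Il6st by 1.01 (SE 0.18, edgeR adjusted p = 3.1e-07). The median log2 difference over all genes was -0.20, and that of the members was -0.72. The other called members had log2 differences of Ifngr1 -0.72, Ifngr2 -0.70, Ifnar2 -0.47, Il10ra -0.91 and Il10rb -0.76 (edgeR adjusted p of at most 0.016). The call of Ifnar2 held in 4 of 9 alternatives, with an edgeR or DESeq2 adjusted p of up to 0.11 in the others, and DESeq2 called 6 members. Without the PFF + VH library 7 of 9 were called. Ifnar1 (-0.55 ± 0.23, edgeR adjusted p = 0.074) and Il31ra (0.05 ± 0.25, edgeR adjusted p = 0.92) were not called. In Inflammatory cells, which were 46.6% to 71.6% of MG, 7 of 9 members were called 3 higher and 4 lower, beside 49.3% of 16478 genes (25.2% higher and 24.1% lower). Il10ra was higher (log2 difference 0.43 ± 0.04, edgeR adjusted p = 1.8e-06), as were Ifnar1 (0.37 ± 0.04, edgeR adjusted p = 5.9e-06) and Ifngr2 (0.25 ± 0.03, edgeR adjusted p = 7.7e-05), while Ifngr1 was lower (-0.24 ± 0.03, edgeR adjusted p = 5.1e-05). Also lower by small steps were Ifnar2 -0.09, Il6ra -0.14 and Il10rb -0.11 on the log2 scale (edgeR adjusted p of at most 0.026), and Il6st was not called (0.01 ± 0.04, edgeR adjusted p = 0.88). Without the PFF + VH library 7 of 9 were called. The calls of Ifnar2 and Il10rb held in 6 and 7 of 9 alternatives. Ifngr1 and Il6ra were lower in each of the 4 ranges. Il31ra was called by edgeR in 0 of them, with 1 unadjusted p under 0.05, in Inflammatory cells (0.11, edgeR adjusted p = 0.072), while DESeq2 had 0 at either level. It was called there in 4 alternatives, with values of up to 0.17. These folds are scaled by TMM and differ from ratios of CPM, where Il31ra stood at a mean of 36.3 CPM in Inflammatory cells against 37.7 CPM in other MG.

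**Figure D4:**
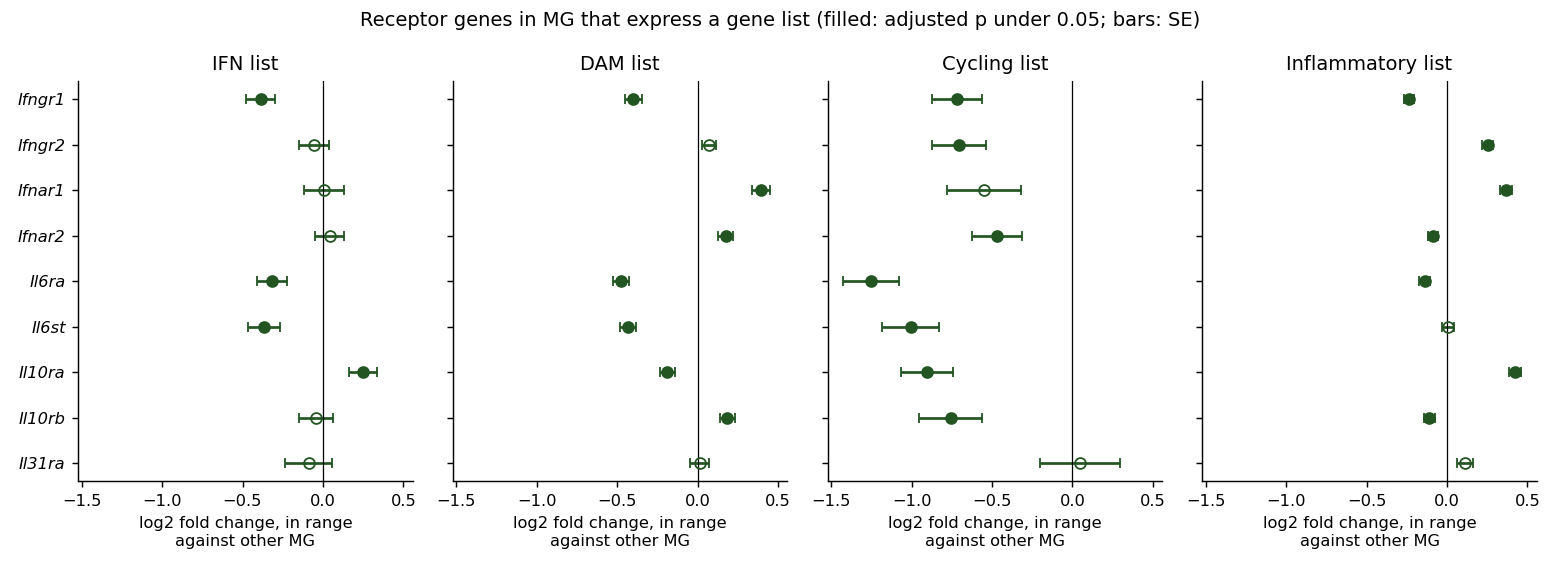
The x axis gives the log2 fold change with its SE between MG that express a gene list and the other MG, over 4 libraries, for the 9 receptor genes tested on the y axis, and filled points have an adjusted p under 0.05. Ifngr1 and Il6ra lie left of 0 as filled points in all 4 panels, and Il31ra is an empty circle in each.

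Transcripts of both chains of a receptor were then counted in the same cell, a count that does not mark the cells able to respond, since IL-6 can also act through a soluble form of its receptor. The share of such cells also moves with the level of each chain. What share unlinked chains would give at these levels was not worked out, so this test is not separate from those of the single chains. The share of MG with a UMI of each chain after thinning to 1000 UMIs was compared over hashtags by an exact two-sided permutation test over all splits of the hashtags, adjusted over 4 pairs. For Il6ra and Il6st it was 2.65%, 2.86%, 2.27% and 2.68% with vehicle and 4.03%, 4.70%, 4.35%, 3.89% and 3.84% with AZD1480. The groups did not overlap, and the mean rose from 2.61% ± 0.25 to 4.16% ± 0.36 (SD, n = 4 and 5; exact permutation p = 0.0079, adjusted p = 0.032), where 0.0079 is the smallest p that these splits allow. In PBS and Monomer the share was 4.95% and 5.09%. In T cells, thinned alike, it was 3.17% in PBS (exact 95% interval 0.872% to 7.93%) and 0 of 87, 81 and 81 cells in Monomer, PFF + VH and PFF + AZD1480, which allows up to 4.15%, 4.45% and 4.45%. Thinning left out 569, 841, 5043 and 410 MG with fewer UMIs in PBS, Monomer, PFF + VH and PFF + AZD1480. Without thinning, the share for Il6ra and Il6st was 21.2% ± 2.18 with vehicle and 48.7% ± 3.89 with AZD1480, where the depth of the cells differed. A cell without a UMI of a chain at this depth may still express it.

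For Ifngr1 and Ifngr2 the share rose from 6.53% ± 0.48 to 7.60% ± 0.44 (exact permutation p = 0.032, adjusted p = 0.032), for Il10ra and Il10rb from 2.64% ± 0.20 to 3.26% ± 0.33 (exact permutation p = 0.024, adjusted p = 0.032), and for Ifnar1 and Ifnar2 it fell from 1.6% ± 0.10 to 1.39% ± 0.12 (exact permutation p = 0.032, adjusted p = 0.032; SD, n = 4 and 5 for each). The groups of these 3 pairs overlapped. The fall for Ifnar1 and Ifnar2 turned into a rise of 0.19 percentage points with thinning to 2000 UMIs (exact permutation adjusted p = 0.63) and into one of 13.1 points without thinning. Leaving out 1 hashtag took the adjusted p of each pair past 0.05 in most cases. Cells with Osmr and either Il6st or Il31ra numbered 0 of 12887, 13150, 27722 and 11640 MG in the 4 libraries, which allows shares of up to 0.0286%, 0.0280%, 0.0133% and 0.0317% for counting error (upper bound of the exact 95% interval).

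**Figure D5:**
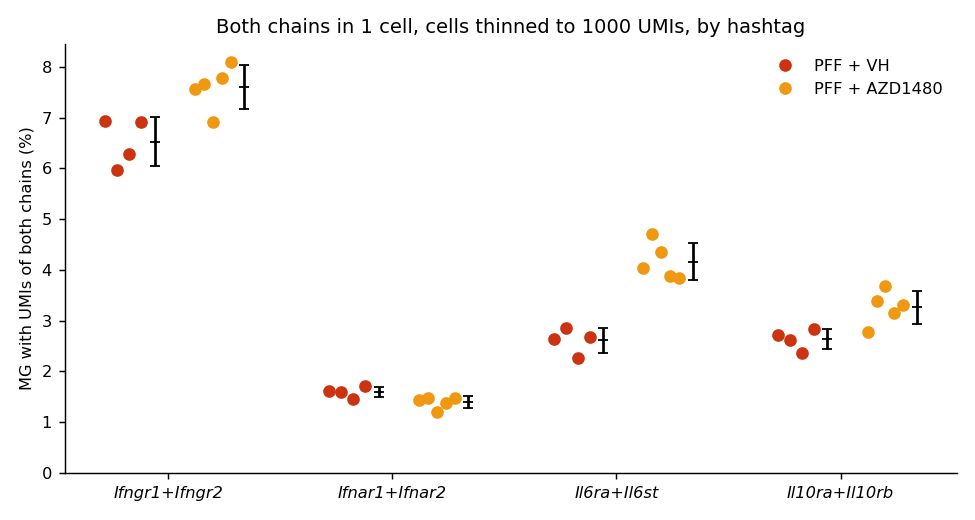
Points give, for each hashtag, the percentage of MG with UMIs of both chains of 4 receptors after thinning to 1000 UMIs (y axis, from 0), for PFF + VH in red and PFF + AZD1480 in orange, with the mean and SD in black. The Il6ra and Il6st pair separates fully, from at most 2.86% with vehicle to at least 3.84% with AZD1480, while the other 3 pairs overlap.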

How the data were processed

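Per the labels and methods, CD45+ cells were loaded on a 10x Chromium 3′ kit. The authors mapped reads to mm10 with Cell Ranger (7.0.1 in the matrix headers, with another release named in the methods) and deposited UMI counts per gene and cell and, for both PFF libraries, hashtag counts. These counts were used as deposited, without normalization, and total 99658216 to 116440449 UMIs per library. The members and gene lists were chosen with earlier results of these data known, and the class limits were set after marker UMIs had been seen. Cells with 500 to 15000 UMIs, 250 to 5000 genes and at most 10% mitochondrial UMIs were kept, which are the limits of the study's methods.

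A cell was put in a class when UMIs of that class's markers were at least 5 above the number its depth would give, with at least 3 marker genes seen, 1.5 times the next class and an MG marker share of at most 0.5 of the library's median. Remaining cells with at least 0.25 of that median and 3 MG markers seen were MG. Cells with markers of several classes and cells without a class were left out, and no doublet caller was run. Several hashtags were called in 11.6% of the cells of PFF + VH and in 13.5% in PFF + AZD1480. Cells with several or no hashtags were left out of the values per hashtag only. They stayed in the library levels, the class and list contrasts and the shares per library. HTODemux (Seurat 5.3.0, positive quantile 0.99) assigned a single hashtag to 53.3% of the cells of PFF + VH and to 80.1% in PFF + AZD1480. The PFF + VH cells it left unassigned were shallower (median 1315 UMIs) than those with a single hashtag (2875).

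Counts were summed per class and hashtag, or per class and library. Differences were tested with edgeR 4.0.16 by quasi-likelihood (R 4.3.3, TMM, filterByExpr, two-sided, Benjamini-Hochberg threshold 0.05 over all genes tested), with a library term for classes and list ranges and a term for the hashtag sample in the MM against MG interaction. DESeq2 1.42.0 was an alternative. The fits were tested on simulated counts first. Shares of cells with both chains were compared by exact permutation (SciPy 1.17.1). Intervals of levels and ratios are 95% and cover counting error only. The SE of an edgeR log2 difference was taken as its size over the square root of the F statistic of the test. The 95% intervals of log2 differences use the normal multiple of this SE, and are therefore somewhat narrow for so few samples. All members are named in each test where they could be fitted. Genes of the other lists are counted, with at most 6 named per list by size of fold change, and the 2 genes most like each member by correlation. A few items that these rules would name are not reported here. Promoter windows came from RefSeq, matched by symbol, and gene positions from the annotation of the same build.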

Additional observations from a re-analysis of the deposited data

Results flagged for a closer look

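In T and NK cells together, Ifnar2 was at 312.5 CPM in PFF + AZD1480 hashtag 5. The other 4 hashtags of that group lay far from it, at 90.8 to 147.9 CPM. The gap to the nearest hashtag was 0.742 of the whole range, above the limit of 0.71 for 5 samples. Chance passes that limit in about 1 in 20 groups, and more than 1 group was searched. The value rests on 10 UMIs in 4 T and NK cells.

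Osmr, which was all but missing from the immune classes, was read as 28 UMIs in 15 endothelial-like cells of PBS and as 21 UMIs in 28 such cells of Monomer. These cells entered no test, and PFF + VH and PFF + AZD1480 held 3 and 4 of them.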

How the results depend on the processing

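Of 1087 fold changes of members under the alternatives, 981 kept direction and side of the threshold, 44 lost it, 9 gained it and 53 changed sign, all 53 of members that were not called. Of 272 counts, 254 stayed within 1.5 times, and of 222 library levels 171 stayed within their interval. The cause was not tested for any change. MM and T cells numbered 2 to 77 per hashtag.

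Genes called for AZD1480 in MM (12) came to 22 by DESeq2, 111 without a filter on low counts, 29 and 25 with other hashtag calls (centred within cells and by ratio), 0 with stricter class limits and 7 to 18 without 1 hashtag, with 7 without PFF + VH hashtag 1 or PFF + AZD1480 hashtag 5. In T cells (51) they came to 127 without a filter, 98 with hashtags by ratio, 0 with stricter limits, 122 with hashtags of at least 5 cells (chosen after the data were seen) and 11 to 71 without 1 hashtag, with 21, 23 and 19 without PFF + VH hashtags 2, 3 and 4 and 11 without PFF + AZD1480 hashtag 4. The interaction (61) gave 39 to 84, with 39 without PFF + VH hashtag 2. Members called in IFN cells (4) came to 2 to 3 without 1 library. The share of higher genes among those called was 58.8% in IFN cells and 44.2% in Cycling cells, and 71.0% and 60.1% by DESeq2.

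With the hashtag number as a replicate block, 3248 genes and 6 of 9 members were called in MG, 6 genes in MM and 62 in T cells. Deviations of hashtags with the same number correlated at -0.036 to 0.069, so the samples share only a number. In MM the block turned Ifnar1 (-0.13) and Il6st (-0.022).

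Without 1 hashtag, the difference in cells with both chains was 0.892 to 1.25 points for Ifngr1 and Ifngr2, -0.248 to -0.155 for Ifnar1 and Ifnar2, 1.41 to 1.63 for Il6ra and Il6st and 0.522 to 0.747 for Il10ra and Il10rb, with exact permutation adjusted p of up to 0.086, 0.125, 0.086 and 0.086. With 8 hashtags few splits remain. For Ifnar1 and Ifnar2 the sign turned at 2000 UMIs (0.19) and unthinned (13.1).

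The log2 value of Il10rb in MM turned by DESeq2 (0.022), centred within cells (0.040), by ratio (0.076), at 1000 counts (0.0085) and with stricter limits (0.058). It also turned with Gm42418, AY036118, Malat1 and mitochondrial genes left out (0.0033), with at least 10 cells (0.0076) and without 1 hashtag (-0.20 to 0.23). That of Il6st in MM turned without 1 hashtag (-0.085 to 0.52). Other log2 values that turned in MM were Ifngr1 with stricter limits (0.20) and Ifnar1 with hashtags by ratio (-0.047) and without 1 hashtag (-0.11 to 0.20). In B cells they were Ifnar1 without a filter (-0.13), with stricter limits (-0.0022) and without 1 library (-0.40 to 0.24), and Il31ra (-0.34 to 0.090). In IFN cells they were Ifngr2 at 2000 UMIs (0.011), Ifnar1 without a filter (-0.022) and without 1 library (-0.046 to 0.011), Ifnar2 with 4 genes (-0.031) and without 1 library (-0.061 to 0.081), Il10rb (-0.11 to 0.017) and Il31ra (-0.24 to 0.00031). Il31ra turned in DAM cells without a filter (-0.0010), with 4 genes (-0.0085), at 2000 UMIs (-0.068) and without 1 library (-0.019 to 0.040), and in Cycling cells with 4 genes (-0.11), at 2000 UMIs (-0.13) and without 1 library (-0.032 to 0.16). Il6st in Inflammatory cells ranged from -0.017 to 0.051. The interaction without 1 hashtag ranged from -0.045 to 0.17 for Ifngr2, -0.27 to 0.051 for Ifnar1, -0.056 to 0.20 for Ifnar2, -0.13 to 0.46 for Il6st, -0.043 to 0.21 for Il10ra and -0.29 to 0.18 for Il10rb.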
